A study of Fukomys damarensis and Heterocephalus glaber and Cavia porcellus with 28 samples.

Results

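NRF2, the transcription factor encoded by Nfe2l2, its repressor gene Keap1 and 8 NRF2 target genes (Nqo1, Hmox1, Gclc, Gclm, Gsr, Txnrd1, Srxn1 and Slc7a11) were followed across 4 rodent species in heart and liver. Members were chosen by symbol, and 9 of the 10 had a row among the 13928 mouse gene identifiers of each tissue table; Srxn1 had none and was not analysed here. RNA depleted of ribosomal RNA was sequenced from 14 hearts and 14 livers, and the mouse and guinea pig were the outgroups to the naked and Damaraland mole-rats. There were 3 naked mole-rat, 5 Damaraland mole-rat, 3 guinea pig and 3 mouse hearts, and 4, 5, 3 and 2 livers in that order. The labels name no treatment, strain or colony, and each library of a species and tissue came from another animal. Naked mole-rats were 13 to 17 months old, Damaraland mole-rats 36 to 48, guinea pigs 2.3 and mice 2, so age and species cannot be told apart. All libraries came from males except that of Damaraland liver replicate 4, and 1 Damaraland animal carries different ages in its heart and liver labels. Of 18 animals, 10 gave both tissues.

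NRF2 is held at a low level by KEAP1, an adaptor that presents it to the CUL3 ubiquitin ligase. Oxidants and electrophiles modify cysteines of KEAP1, NRF2 then escapes degradation, enters the nucleus, pairs with a small MAF protein and binds antioxidant response elements near its targets. Because this control acts mainly on the stability of the protein, the Nfe2l2 transcript is not a measure of NRF2 activity. The targets make and recycle glutathione and thioredoxin, reduce quinones and break down heme, and the liver relies on them in handling foreign compounds. Gclc and Gclm encode the catalytic and modifier subunits of glutamate-cysteine ligase, the rate-limiting enzyme of glutathione synthesis.

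The deposited values are variance-stabilised and log2-like, and the tissues were transformed separately, so levels were compared between species within a tissue and never between heart and liver. The lowest possible value, that of 0 reads, is 5.36 for hearts and 4.29 for livers. Differences of weakly expressed genes are compressed: a 2-fold change from 100 scaled reads moves the value by 0.68 in heart and 0.80 in liver, and from 1000 scaled reads by 0.95 and 0.97. Scaled reads are reads recovered by inverting the transform, divided by the size factor of the library, with no correction for gene length, so a gene is compared only with itself across species. Hearts had 4089633 to 26985779 reads in all, and livers 11220505 to 21467939. Naked mole-rat heart replicate 3 was the shallowest library, and its member values rest on as few as 32 reads for Gclc, 33 for Nqo1 and 35 for Gclm. Cardiomyocyte markers took 4.67% to 6.79% of reads in naked mole-rat hearts and 10.99% to 14.4% in Damaraland hearts. They took 6.08% to 8.13% in guinea pig and 5.42% to 5.74% in mouse hearts. Hepatocyte markers took 10.1% to 16.8% in naked mole-rat and 12.9% to 14.99% in Damaraland livers. In guinea pig and mouse livers they took 7.65% to 11.1% and 8.09% to 9.14%. The part of these shares in the member values was not tested. Hepatocyte markers also took 0.0735% to 0.192% of reads in naked mole-rat hearts, against 0.0131% to 0.0394% in Damaraland, 0.00319% to 0.0158% in guinea pig and 0.00177% to 0.00654% in mouse hearts, and all 5 such markers tested were called higher in the mole-rat hearts on average. Their part in the naked mole-rat heart values was not tested.

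Neither Nfe2l2 nor Keap1 was called between any pair of species in the fit of all libraries, whereas each of the 6 targets that could be tested was called between at least 1 pair in each tissue. Of all tested genes, 72% in heart and 76.4% in liver were called between at least 1 pair, so such a call does not set the targets apart. A gene was called when its limma adjusted p was under 0.05 and its difference at least 1 on the deposited scale. Of the 9 members, 8 passed the filter on low values in each tissue, and Slc7a11 did not. In the contrast of the mean of the mole-rats with the mean of the outgroups, 1 member was higher (Gsr) and 2 were lower (Nqo1 and Gclm) in heart, where 23.4% of all tested genes were called. In liver 2 were higher (Nqo1 and Hmox1) and 2 lower (Gclc and Gclm), where 28.1% were called. The median member difference was 0.12 in heart and 0.28 in liver, beside -0.01 and 0.02 over all tested genes. Over the 6 pairs of species, 17 of 48 comparisons of a member were called in heart and 23 of 48 in liver, beside 32.9% and 37.6% for all genes. A single member in each tissue was called in the same direction in all 4 contrasts of a mole-rat with an outgroup: Nqo1 was lower in heart and Gclc was lower in liver. Among all genes 2.62% were lower by that rule in heart and 2.87% in liver.

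Members called in each pair of species are given here with, in brackets, the share of all tested genes called in either direction. In heart, of 8 members, naked minus Damaraland mole-rat had 1 higher and 3 lower (29.4%), naked mole-rat minus guinea pig 1 higher and 2 lower (33%) and naked mole-rat minus mouse 2 higher and 2 lower (38.2%). Damaraland mole-rat minus guinea pig had 1 higher and 1 lower (29.7%), Damaraland mole-rat minus mouse 1 higher and 2 lower (34.9%) and guinea pig minus mouse 0 higher and 1 lower (32.1%). In liver the naked mole-rat had 1 higher and 2 lower (34.2%) against Damaraland mole-rat, 2 higher and 2 lower (37.8%) against guinea pig and 2 higher and 3 lower (41.2%) against mouse. The Damaraland mole-rat had 2 higher and 1 lower (36.2%) against guinea pig and 2 higher and 2 lower (39.2%) against mouse, and guinea pig minus mouse had 2 higher and 2 lower (37.2%). With 8 members, these counts were not tested against that share. Gclm was called in 5 of 6 pairs in heart and 6 of 6 in liver, Nqo1 in 4 and 3, Hmox1 in 2 and 4, Gclc in 1 and 5, Txnrd1 in 2 and 4 and Gsr in 3 and 1.

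**Figure D1:**
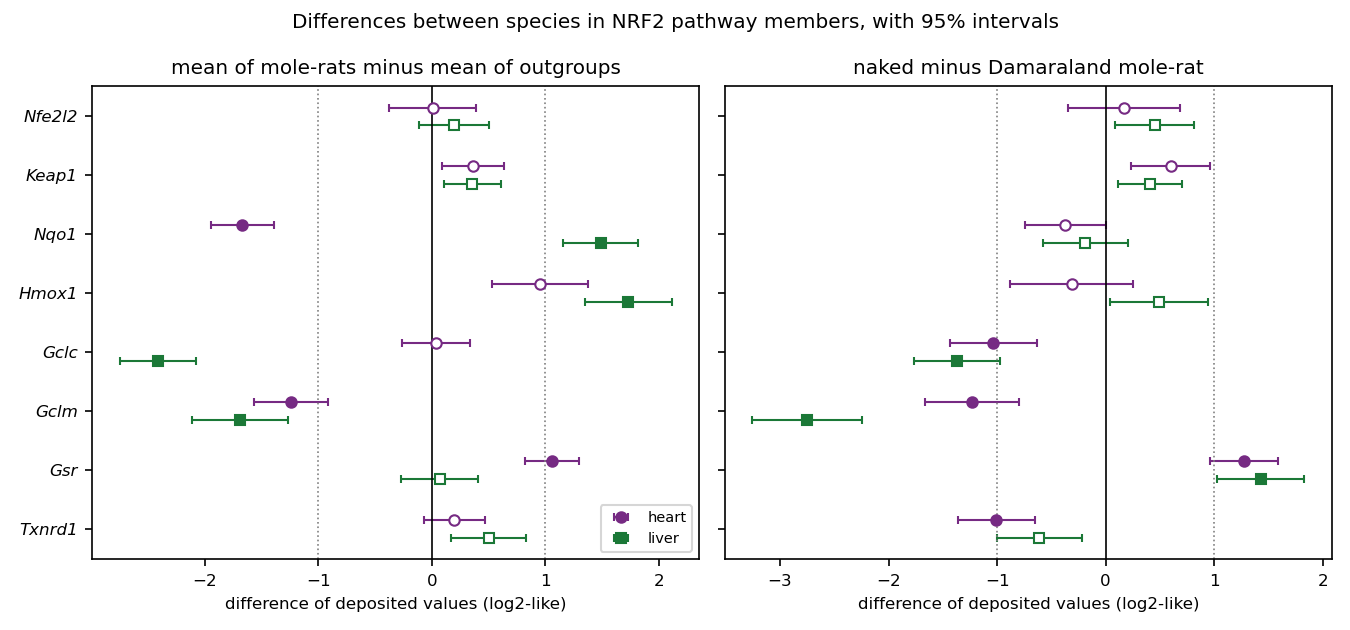
Differences of the 8 tested members on the deposited log2-like scale with 95% confidence intervals, for the mean of the mole-rats minus the mean of the outgroups (left) and naked minus Damaraland mole-rat (right), in heart (circles) and liver (squares). Filled symbols were called, and the dotted lines mark differences of -1 and 1. Nfe2l2 and Keap1 have open symbols throughout, and Nqo1 lies at -1.67 in heart and 1.49 in liver.

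Nfe2l2 (ENSMUSG00000015839) showed no detected difference between any pair of species in heart. Its values were 9.55, 9.60 and 10.06 in naked mole-rat heart and 9.83, 9.78, 9.49, 9.89 and 8.87 in Damaraland heart. They were 10.000, 9.01 and 9.79 in guinea pig and 9.60, 9.83 and 9.65 in mouse heart. The ranges of all species overlapped. Single pairs were less certain than the average contrast, with a 95% interval of -0.44 to 0.71 for naked mole-rat minus guinea pig. The mole-rats differed from the outgroups by 0.01 (95% interval -0.38 to 0.39, limma adjusted p = 0.977), an interval that does not include a difference of 1, and no neighbours in the order of means differed beyond their spread. In liver the values were 10.59, 10.59, 10.05 and 10.28 in naked mole-rat, 9.42, 10.11, 9.83, 10.15 and 10.13 in Damaraland mole-rat, 10.11, 10.59 and 10.26 in guinea pig and 9.59 and 9.59 in mouse. Mouse livers were below every guinea pig and naked mole-rat liver but within the Damaraland range. Mean scaled reads of Nfe2l2 in liver were 1308, 952, 1254 and 731 in the same order of species. The differences from mouse were 0.79 for the naked mole-rat (limma adjusted p = 0.00507) and 0.73 for the guinea pig (limma adjusted p = 0.0129), neither of them reaching 1.

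Keap1 (ENSMUSG00000003308) had its highest mean in the naked mole-rat in both tissues, by less than the size threshold against every other species. In heart its values were 11.06, 11.12 and 10.41 in naked mole-rat, 10.34, 10.48, 10.18, 9.98 and 10.35 in Damaraland mole-rat, 10.12, 10.40 and 10.39 in guinea pig and 10.13, 10.07 and 10.11 in mouse. Replicates 1 and 2 of the naked mole-rat were above all other hearts, and replicate 3, the shallow library, lay among the Damaraland hearts. The naked mole-rat mean exceeded that of Damaraland mole-rat by 0.60 (standard error 0.17, limma adjusted p = 0.00644), guinea pig by 0.56 (standard error 0.19, limma adjusted p = 0.0191) and mouse by 0.76 (standard error 0.19, limma adjusted p = 0.00246). In liver the values were 10.60, 10.69, 10.92 and 10.83 in naked mole-rat, 10.49, 10.18, 10.68, 10.19 and 10.20 in Damaraland mole-rat, 10.42, 10.55 and 10.60 in guinea pig and 9.70 and 10.03 in mouse. Mouse livers were below all other livers. The naked mole-rat liver exceeded mouse by 0.89 (standard error 0.18, limma adjusted p = 0.000382) and guinea pig by 0.24 (standard error 0.16, limma adjusted p = 0.205), with a 95% interval of -0.10 to 0.57 for the latter. With 2 mouse livers the difference from mouse depends on each: it passed the size threshold without mouse liver replicate 2 (1.06, limma adjusted p = 0.00111), a fit in which the lone mouse library is assumed to vary like the other species. Mean scaled reads of Keap1 were 1826 in naked mole-rat against 1019.9 in mouse heart, and 1701 against 902 in liver.

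**Figure D2:**
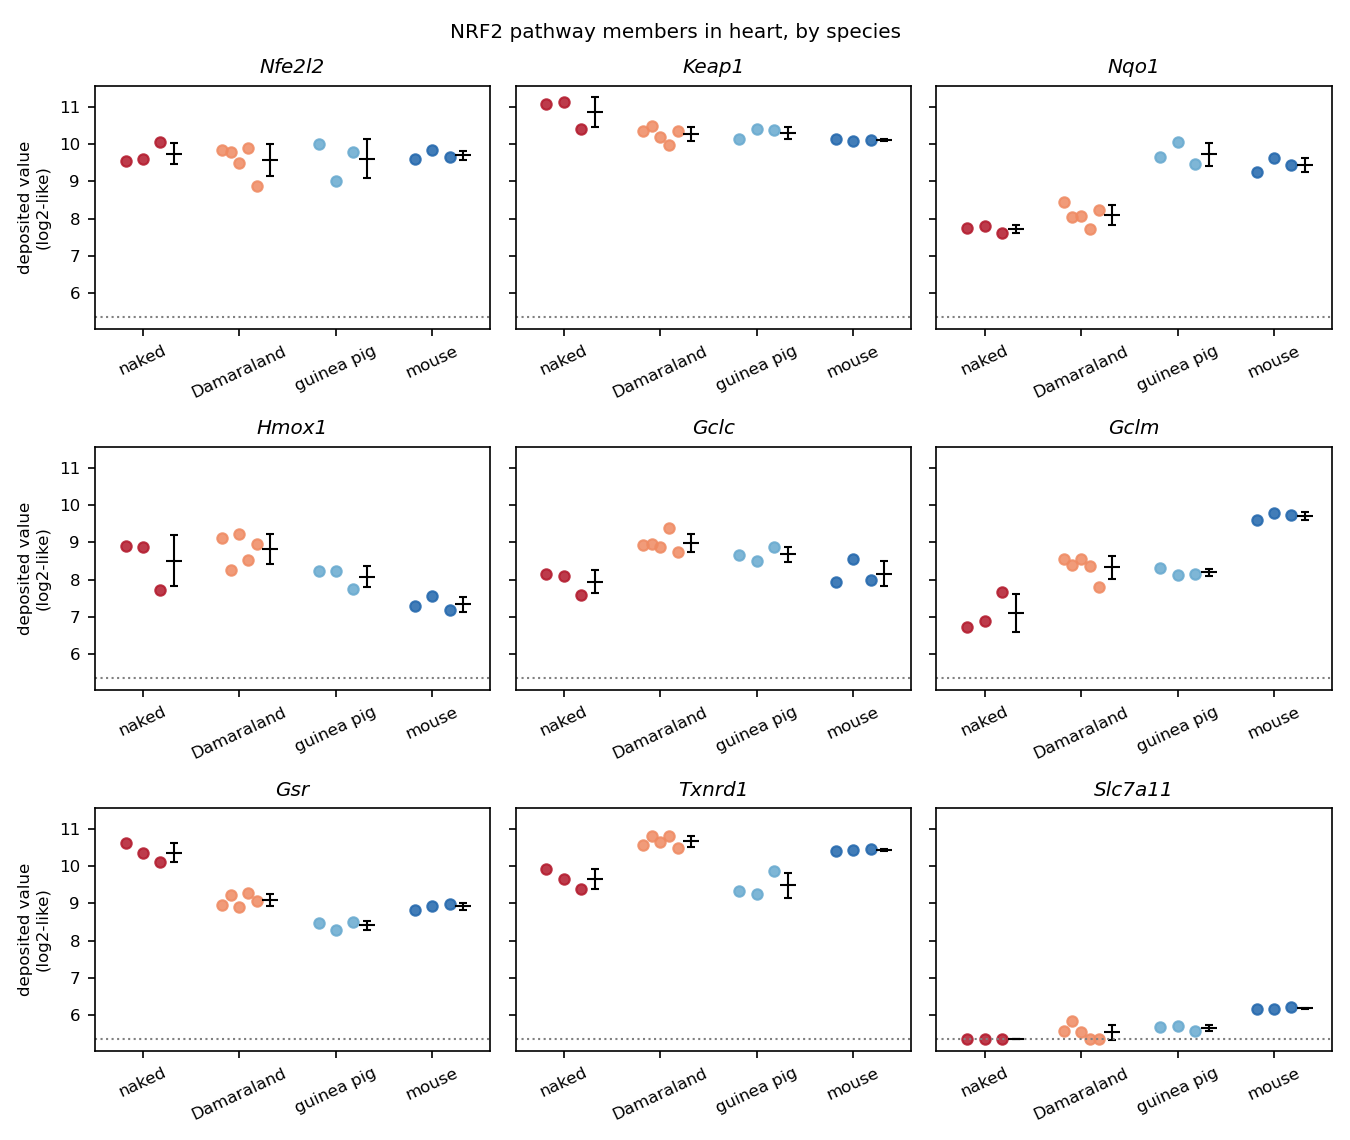
Deposited log2-like values of the 9 members in each heart library (points), with the mean and SD of each species beside them (black) and the value of 0 reads (dotted line). Nqo1 is at 8.44 or less in all mole-rat hearts and at 9.24 or more in all guinea pig and mouse hearts.

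Nqo1 (ENSMUSG00000003849), which encodes a quinone reductase and is a widely used readout of NRF2 activity, was lower in the hearts of both mole-rats than in those of both outgroups. Its values in heart were 7.75, 7.81 and 7.61 in naked mole-rat and 8.44, 8.03, 8.06, 7.71 and 8.23 in Damaraland mole-rat, against 9.66, 10.04 and 9.45 in guinea pig and 9.24, 9.63 and 9.43 in mouse. Every mole-rat heart was below every outgroup heart, a separation found in 7.59% of tested genes. Naked and Damaraland hearts averaged 137 and 201 scaled reads, guinea pig hearts 775 and mouse hearts 616. The average contrast was -1.67 (standard error 0.13, limma adjusted p = 1.17e-08), and the 4 contrasts behind it ran from -1.996 for naked mole-rat minus guinea pig to -1.34 for Damaraland mole-rat minus mouse. The mole-rats differed from each other by -0.37 (limma adjusted p = 0.078).

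In liver the pattern of Nqo1 was another one: the mouse alone was low. Values were 9.99, 9.83, 9.16 and 9.08 in naked mole-rat, 9.80, 9.86, 9.76, 9.55 and 9.53 in Damaraland mole-rat, 10.08, 9.57 and 9.78 in guinea pig, but 6.42 and 6.44 in mouse. The ranges of the first 3 species overlapped, and both mouse livers lay far below them with 43 and 72 reads. Mean scaled reads in mouse liver were 51.5, lower by 14, 15.5 and 16.9 times than in naked mole-rat, Damaraland mole-rat and guinea pig. Mouse was called lower against each of the other species, with differences of 3.09, 3.27 and 3.38 in that order (limma adjusted p of at most 5.84e-09), a rule met by 5.83% of tested genes. The positive average contrast of Nqo1 in liver, 1.49 (standard error 0.16, limma adjusted p = 2.12e-07), therefore came from mouse, since the mole-rats were 0.30 and 0.11 below guinea pig (limma adjusted p = 0.22 and 0.637).

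Gclc (ENSMUSG00000032350), the catalytic subunit gene of glutamate-cysteine ligase, was lower in the livers of both mole-rats, and lowest in the naked mole-rat. Its liver values were 9.18, 9.22, 9.99 and 9.38 in naked mole-rat and 10.82, 10.52, 10.96, 11.03 and 10.73 in Damaraland mole-rat, against 11.75, 12.27 and 12.36 in guinea pig and 12.74 and 13.16 in mouse. No 2 species overlapped, and every mole-rat liver was below every outgroup liver, as for 7.37% of tested genes. Mean scaled reads were 677, 1774, 4518 and 7962 in naked mole-rat, Damaraland mole-rat, guinea pig and mouse. The average contrast was -2.41 (standard error 0.16, limma adjusted p = 6.89e-10). The naked mole-rat was below the Damaraland mole-rat by 1.37 on that scale (standard error 0.19, limma adjusted p = 5.35e-06), and was called lower against each other species, as were 4.45% of genes. Guinea pig minus mouse was -0.82 (limma adjusted p = 0.0108), and -1.03 without mouse liver replicate 1 (limma adjusted p = 0.0137), a fit with 1 mouse liver whose spread is assumed to be that of the other species.

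In heart Gclc did not separate the mole-rats from the outgroups. Values were 8.15, 8.08 and 7.59 in naked mole-rat, 8.93, 8.96, 8.86, 9.38 and 8.74 in Damaraland mole-rat, 8.67, 8.48 and 8.89 in guinea pig and 7.93, 8.54 and 7.997 in mouse, and the average contrast was 0.04 (95% interval -0.26 to 0.34, limma adjusted p = 0.826). Naked mole-rat hearts were all below Damaraland hearts, by 1.03 (standard error 0.19, limma adjusted p = 0.000174). That call did not hold without naked mole-rat heart replicate 3 (-0.86, limma adjusted p = 0.00136) or Damaraland heart replicate 4 (-0.93, limma adjusted p = 0.000386), which left the difference under the size threshold, or with the replicate number as a block (-0.98, limma adjusted p = 0.00127). The Damaraland excess over mouse, 0.82 (limma adjusted p = 0.00117), passed without mouse heart replicate 2 (1.01, limma adjusted p = 0.000544).

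Gclm (ENSMUSG00000028124), the modifier subunit gene, was lowest in the naked mole-rat and highest in the mouse in both tissues. In liver its values were 8.61, 8.36, 8.02 and 8.26 in naked mole-rat, 11.32, 10.94, 11.39, 11.52 and 10.16 in Damaraland mole-rat, 10.33, 9.55 and 10.17 in guinea pig and 12.80 and 12.68 in mouse. Naked mole-rat livers were below and mouse livers above all others, the latter as called for 6.33% of genes, and Damaraland replicate 5 lay within the guinea pig range. Mean scaled reads ran from 284 in naked mole-rat through 1025 in guinea pig and 2217 in Damaraland mole-rat to 6805 in mouse. All 6 pairs of species were called in liver, and the naked mole-rat differed from the Damaraland mole-rat by -2.75 (standard error 0.24, limma adjusted p = 2.01e-08) and from mouse by -4.43 (standard error 0.31, limma adjusted p = 1.65e-09). The average contrast in liver was -1.69 (standard error 0.20, limma adjusted p = 1.07e-06), although Damaraland livers were above guinea pig livers by 1.05 (standard error 0.26, limma adjusted p = 0.00191). This last call fell under the size threshold without guinea pig liver replicate 2 (0.82) or without Damaraland liver replicate 1, 3 or 4 (0.98, 0.97 and 0.93), with limma adjusted p-values of 0.00491 to 0.0191.

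In heart Gclm was 6.73, 6.89 and 7.67 in naked mole-rat, 8.54, 8.38, 8.56, 8.37 and 7.80 in Damaraland mole-rat, 8.31, 8.13 and 8.15 in guinea pig and 9.59, 9.79 and 9.74 in mouse. Naked mole-rat hearts were again below and mouse hearts above all others, as called for 4.14% and 6.6% of genes, while Damaraland and guinea pig hearts overlapped and differed by 0.13 (95% interval -0.30 to 0.57). The naked mole-rat hearts held 47, 78 and 35 reads of Gclm, so compression matters for this gene. The difference between naked and Damaraland mole-rat was -1.23 (standard error 0.21, limma adjusted p = 7.02e-05) on the deposited scale and a log2 fold of -2.25 with voom on the recovered reads (limma adjusted p = 1.13e-05). That between naked mole-rat and guinea pig was -1.10 (standard error 0.23, limma adjusted p = 0.000582) and -2.04 with voom. The latter difference was -0.92 without naked mole-rat heart replicate 1 and -0.997 without replicate 2, both under 1 in size (limma adjusted p = 0.00471 and 0.00398).

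**Figure D3:**
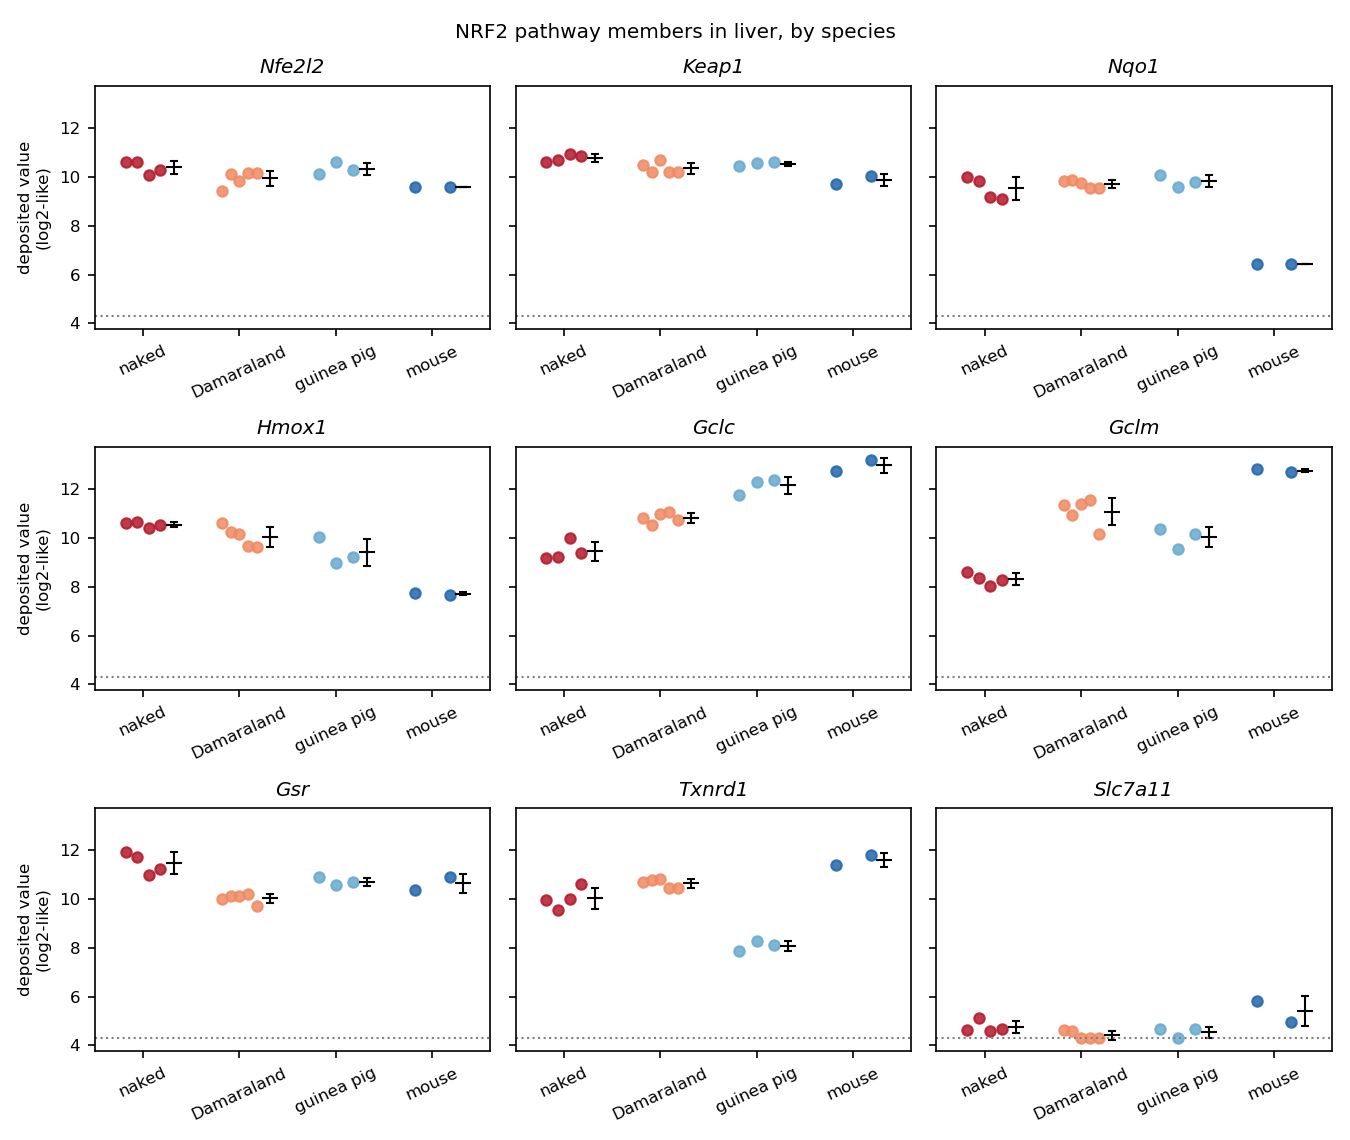
Deposited log2-like values of the 9 members in each liver library (points), with the mean and SD of each species beside them (black) and the value of 0 reads (dotted line). Gclc falls from mouse to naked mole-rat with no overlap between species, and Nqo1 is low in the 2 mouse livers only.

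Slc7a11 (ENSMUSG00000027737), the cystine importer gene that feeds cysteine into glutathione synthesis, was near the limit of detection in every library. In heart it had 0, 0 and 0 reads in naked mole-rat, 1, 5, 1, 0 and 0 in Damaraland mole-rat, 3, 3 and 1 in guinea pig and 20, 17 and 18 in mouse. A count of 0 among the 45713133 reads of the naked mole-rat hearts allows at most 3 reads in that total, for counting error only, or an Slc7a11 level of 0.0656 CPM (counts per 1e6 reads), and the mouse hearts held 0.732 CPM. Naked mole-rat livers had 1, 5, 1 and 2 reads and Damaraland livers 1, 1, 0, 0 and 0. Guinea pig livers had 2, 0 and 2 and mouse livers 21 and 6. Mouse hearts were above all other hearts. In liver, corrected for depth, mouse replicate 2 with 4.35 scaled reads was below naked mole-rat replicate 2 with 6.91. The gene did not pass the filter on low values, and no difference is given.

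Gsr (ENSMUSG00000031584) encodes glutathione reductase, which regenerates reduced glutathione, and it had its highest mean in the naked mole-rat in both tissues. In heart its values were 10.63, 10.35 and 10.10 in naked mole-rat, 8.95, 9.21, 8.91, 9.28 and 9.06 in Damaraland mole-rat, 8.46, 8.28 and 8.50 in guinea pig and 8.82, 8.94 and 8.98 in mouse. All naked mole-rat hearts were above all others. Mean scaled reads were 1247 in naked mole-rat and 466, 264 and 404 in the other species in that order. The naked mole-rat was called higher against each of the others, by 1.28 over Damaraland mole-rat (standard error 0.15, limma adjusted p = 1.41e-06), 1.95 over guinea pig (standard error 0.17, limma adjusted p = 3.96e-08) and 1.45 over mouse (standard error 0.17, limma adjusted p = 1.01e-06), a rule met by 4.87% of genes. The average contrast was 1.06 (standard error 0.11, limma adjusted p = 3.31e-07). Damaraland hearts were all above guinea pig hearts, by 0.67 (limma adjusted p = 0.000881), and differed from mouse hearts by 0.17 (limma adjusted p = 0.322). The average contrast was 0.99, no longer called, without naked mole-rat heart replicate 1 (limma adjusted p = 1.53e-06).

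In liver Gsr was 11.91, 11.70, 10.95 and 11.21 in naked mole-rat, 9.97, 10.12, 10.11, 10.17 and 9.69 in Damaraland mole-rat, 10.87, 10.55 and 10.66 in guinea pig and 10.34 and 10.90 in mouse. All naked mole-rat livers were above all others, and all Damaraland livers below. The share of all genes separated in this way is not given here. The mole-rats differed from each other by 1.43 (standard error 0.19, limma adjusted p = 3.66e-06), the only pair of species called, and lay on either side of the outgroups, so the average contrast was 0.07 (limma adjusted p = 0.716). The differences of the naked mole-rat from guinea pig and mouse were 0.75 and 0.82 (limma adjusted p = 0.0057 and 0.00741), too small to be called, and the second passed without mouse liver replicate 2 (1.10, limma adjusted p = 0.00650), a fit with 1 mouse liver whose spread is assumed to be that of the other species.

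Txnrd1 (ENSMUSG00000020250), the gene of cytosolic thioredoxin reductase, had its lowest mean in the guinea pig in both tissues. In liver its values were 9.96, 9.54, 9.97 and 10.59 in naked mole-rat, 10.67, 10.77, 10.81, 10.43 and 10.43 in Damaraland mole-rat, 7.86, 8.25 and 8.09 in guinea pig and 11.36 and 11.78 in mouse. Guinea pig livers were below and mouse livers above all others, and naked mole-rat replicate 4 reached the Damaraland range. Mean scaled reads were 1032, 1549, 232 and 3031 in the same order. Guinea pig was called lower against each of the others, by 1.95 against naked mole-rat (standard error 0.21, limma adjusted p = 3.29e-07), 2.56 against Damaraland mole-rat (standard error 0.20, limma adjusted p = 6.44e-09) and 3.50 against mouse (standard error 0.25, limma adjusted p = 3.4e-09). Of all genes, 4.28% were lower in guinea pig by that rule. With the mole-rats between the outgroups, the average contrast was 0.50 (limma adjusted p = 0.00884). Damaraland mole-rat minus mouse was -0.95 (limma adjusted p = 0.00171), and -1.15 without mouse liver replicate 1 (limma adjusted p = 0.00401), a fit with 1 mouse liver whose spread is assumed to be that of the other species.

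In heart Txnrd1 was 9.93, 9.65 and 9.38 in naked mole-rat, 10.56, 10.80, 10.63, 10.81 and 10.48 in Damaraland mole-rat, 9.33, 9.25 and 9.87 in guinea pig and 10.40, 10.42 and 10.47 in mouse. Damaraland and mouse hearts were all above naked mole-rat and guinea pig hearts. Every Damaraland heart was above every mouse heart, by a mean of 0.23 that did not pass the test (limma adjusted p = 0.234). The shares of all genes separated in these ways are not given here. Naked mole-rat and guinea pig hearts overlapped and differed by 0.17 (limma adjusted p = 0.454). The Damaraland mole-rat exceeded guinea pig by 1.17 (standard error 0.17, limma adjusted p = 1.28e-05) and naked mole-rat by 1.01 (standard error 0.17, limma adjusted p = 6.72e-05). The latter lies on the size threshold: naked minus Damaraland mole-rat was -0.97 without Damaraland heart replicate 2 or 4, -0.87 without naked mole-rat heart replicate 3 and -0.98 after quantile normalisation (limma adjusted p of 9.99e-05 to 0.000473). Guinea pig minus mouse was -0.94 (standard error 0.19, limma adjusted p = 0.000381) and passed without guinea pig heart replicate 3 (-1.14, limma adjusted p = 0.000106).

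Hmox1 (ENSMUSG00000005413), which encodes the inducible heme oxygenase and is also regulated by the heme-sensing repressor BACH1, had its lowest mean in the mouse in both tissues. In liver its values were 10.59, 10.64, 10.39 and 10.51 in naked mole-rat, 10.58, 10.21, 10.16, 9.64 and 9.63 in Damaraland mole-rat, 10.03, 8.96 and 9.23 in guinea pig and 7.75 and 7.67 in mouse. Both mouse livers were far below all others, and Damaraland and guinea pig livers overlapped. Mean scaled reads were 1447, 1050.2, 675 and 172 in that order. Mouse was called lower against each of the others, with differences of 2.82 for naked mole-rat (standard error 0.28, limma adjusted p = 1.19e-07), 2.33 for Damaraland mole-rat (standard error 0.27, limma adjusted p = 8.15e-07) and 1.70 for guinea pig (standard error 0.29, limma adjusted p = 9.14e-05). Of all genes, 5.83% were lower in mouse by that rule. The average contrast was 1.73 (standard error 0.18, limma adjusted p = 2.13e-07). The naked mole-rat was also above guinea pig, by 1.13 (standard error 0.24, limma adjusted p = 0.000608), or by 0.91 without guinea pig liver replicate 2 (limma adjusted p = 0.00607), and Damaraland mole-rat exceeded guinea pig by 0.64 (limma adjusted p = 0.0236), under the size threshold.

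In heart Hmox1 was 8.91, 8.89 and 7.72 in naked mole-rat, 9.12, 8.26, 9.22, 8.54 and 8.96 in Damaraland mole-rat, 8.23, 8.24 and 7.75 in guinea pig and 7.28, 7.56 and 7.17 in mouse. Mouse hearts were below all others, and naked mole-rat replicate 3, at 37 reads, lay just below the guinea pig hearts. The naked and Damaraland mole-rats exceeded mouse by 1.17 (standard error 0.30, limma adjusted p = 0.00259) and 1.48 (standard error 0.27, limma adjusted p = 0.000122). The first of these was 0.96 and 0.98 without naked mole-rat heart replicate 1 or 2 (limma adjusted p = 0.0171 and 0.0170). The average contrast, 0.96 (standard error 0.20, limma adjusted p = 0.000475), was just under the size threshold, and it passed at 1.15 without naked mole-rat heart replicate 3 (limma adjusted p = 1.35e-05), 1.03 without Damaraland replicate 2, 1.01 without mouse replicate 2 and at a log2 fold of 1.42 with voom (limma adjusted p = 0.000106). Macrophages, which clear red cells, are a known source of Hmox1. Of 13 macrophage and Kupffer cell markers, 7 were in the tables, and in liver 0 were called higher and 1 lower in the average contrast. Their summed scaled reads were 4411 to 6972 in naked mole-rat, 2803 to 4443 in Damaraland mole-rat, 5047 to 8677 in guinea pig and 3144 to 3623 in mouse liver, with Cd163 at 0 in every naked mole-rat liver. In heart the sums were 1029.9 to 1856, 1935 to 4154, 2659.9 to 3056 and 2504 to 3314. The mouse sums lay within the Damaraland range in liver, and the naked mole-rat sums were the lowest in heart. Alas2, the only 1 of 7 erythroid markers in the tables, had 1556 to 1949 scaled reads in mouse livers and 62.2 to 126, 35.8 to 108 and 61.5 to 192 in naked mole-rat, Damaraland mole-rat and guinea pig livers. The part of these cells in the Hmox1 values was not tested. In such whole-tissue RNA, fewer cells of a type and less RNA per cell cannot be told apart.

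Between the mole-rats, Gclc and Gclm were lower and Gsr was higher in naked than in Damaraland mole-rat in both tissues, and Txnrd1 was lower in heart. This made 4 of 8 members called in heart and 3 of 8 in liver, beside 29.4% and 34.2% of all genes. The heart count was 2 without naked mole-rat replicate 3 or Damaraland replicate 4, as given for Gclc and Txnrd1. Of the other listed pathway genes 8 were higher and 17 lower in the naked mole-rat in each tissue, of 48 tested in heart and 49 in liver. The shares of 29.4% and 34.2% cover both directions, and shares by direction are not given here. These counts were not tested against a share. Nfe2l2, Keap1, Nqo1 and Hmox1 were not called between the mole-rats in either tissue. Their 95% intervals in liver were 0.09 to 0.82, 0.11 to 0.71, -0.57 to 0.20 and 0.04 to 0.94 in that order. In liver Nfe2l2 differed by 0.45 and Keap1 by 0.41 (limma adjusted p = 0.0286 and 0.0161), and these missed the size threshold only. The same held for Keap1 in heart. It also held for Txnrd1 in liver, where naked minus Damaraland mole-rat was -0.61 (limma adjusted p = 0.00754).

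Among the partners and regulators of NRF2, the small MAF gene Mafg was lower in both mole-rats in both tissues. Small MAF proteins pair with NRF2 on antioxidant response elements and also with repressors such as BACH1. In heart the mean Mafg value was 7.15 ± 0.12 (SD, n = 3) in the naked and 8.47 ± 0.23 (SD, n = 5) in the Damaraland species, whereas guinea pig hearts were at 9.65 ± 0.38 (SD, n = 3) and mouse hearts at 9.51 ± 0.08 (SD, n = 3). In liver the means were 6.04 ± 0.40 (SD, n = 4), 7.58 ± 0.30 (SD, n = 5), 9.91 ± 0.48 (SD, n = 3) and 9.82 ± 0.11 (SD, n = 2). Every mole-rat library was below every outgroup library in both tissues, a separation found in 7.59% of tested genes in heart and 7.37% in liver. Naked and Damaraland livers averaged 34.5 and 158 scaled reads of Mafg, guinea pig livers 961 and mouse livers 869. The average contrast was -1.77 in heart (standard error 0.13, limma adjusted p = 4.61e-09) and -3.06 in liver (standard error 0.18, limma adjusted p = 2.08e-10). In each tissue 10 of 11 listed partners and regulators were tested. In heart 1 was higher and 1 lower: Btrc, a subunit of another ubiquitin ligase that targets NRF2, was higher by 1.07 (standard error 0.11, limma adjusted p = 2.46e-07), with Damaraland mole-rat above all other species. The Btrc mean was 9.08 in naked mole-rat, below guinea pig at 9.44 and above mouse at 8.73. In liver 0 were higher and 3 lower, Mafg with Nfe2l1, the NRF1 gene, at -1.40 (standard error 0.16, limma adjusted p = 7.2e-07) and Mafk at -1.07 (standard error 0.13, limma adjusted p = 1.7e-06). Both of the latter were lowest in naked mole-rat, where Mafk had a mean of 48.1 scaled reads against 416 in Damaraland mole-rat. Unlike Mafg, Mafk was low in naked mole-rat livers only, with a mean value of 6.33. The Damaraland mean, 8.82, lay above that of mouse livers (8.28) and just below that of guinea pig livers (9.02).

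The wider set of glutathione, thioredoxin, NADPH, heme and detoxification genes moved in both directions. With the partners and regulators, 9 of 48 tested genes were higher and 7 lower in the average contrast in heart, and 9 of 49 higher and 8 lower in liver. Of all tested genes, 10.8% were higher and 12.6% lower in heart, and 15.1% higher and 13% lower in liver, and the lists were not tested against these shares. Their median difference was 0.10 in heart and 0.19 in liver. In these lists Gpx4, which reduces lipid peroxides, was lower in both mole-rats in liver, at 8.76 and 10.06 against 11.21 in guinea pig and 11.74 in mouse (average contrast -2.06, limma adjusted p = 2.08e-09). In heart Gpx4 averaged -1.85 (limma adjusted p = 1.56e-07), with Damaraland mole-rat above guinea pig by 0.94. Of the glutathione genes, 0 were higher and 1 lower of 8 in heart, and 3 higher and 2 lower of 9 in liver. In mouse liver Gstp1, a glutathione transferase gene, had a mean of 15.66 against 7.64 to 8.21 in the other species, while Gstm5 was lowest in mouse at 6.93 against 10.45 to 11.89, and the average contrasts were -3.66 and 2.38 (limma adjusted p = 1.19e-11 and 1.35e-10). Abcc1, a pump for glutathione conjugates, was higher by 1.91 in the average contrast in liver (limma adjusted p = 1.95e-06). Mouse livers had its lowest mean (6.42) and Damaraland livers its highest (9.89). Between these lay the means of guinea pig livers (8.05) and naked mole-rat livers (8.39). Damaraland liver replicate 5, at 11.21, stood apart from the rest of its species, which ran from 9.28 to 9.83. Gpx4, Prdx1 and Fth1 have processed copies in rodent genomes and the transferases have close relatives. How shared reads were assigned is not given in the sources used here, so the values of these genes are uncertain.

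Of 8 thioredoxin system genes, 0 were higher and 4 lower in heart and 0 higher and 2 lower in liver, beside 12.6% and 13% of all genes lower. In both tissues 0 of the 8 were called in the same direction in all 4 contrasts of a mole-rat with an outgroup. The list median was -0.70 in heart and -0.05 in liver. Prdx1, a peroxiredoxin, averaged -1.30 in heart (limma adjusted p = 9.54e-06) with naked mole-rat at 8.47 against 11.06 to 11.78 in the other species. Txn2, the mitochondrial thioredoxin gene, averaged -1.17 in heart (limma adjusted p = 5.82e-07), and Txn1, the cytosolic one, -1.17 in liver (limma adjusted p = 1.07e-06). Txnrd3, a thioredoxin reductase gene, had 433 mean scaled reads in mouse heart and 0.714 to 17 in the other hearts, and 0 reads in every naked mole-rat and guinea pig liver. Its average contrast was -1.66 in heart and -1.001 in liver (limma adjusted p = 1.55e-06 and 0.00072), and the liver call did not hold with voom (limma adjusted p = 0.0583).

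NADPH supply genes feed both reductase systems. In heart 2 of 5 were higher, beside 10.8% of all genes: Pgd of the pentose phosphate pathway by 1.24 (standard error 0.12, limma adjusted p = 1.46e-07), with means of 9.93 and 9.83 in naked and Damaraland mole-rat against 8.39 and 8.88 in guinea pig and mouse, and Tkt, transketolase, by 1.30 (standard error 0.13, limma adjusted p = 2.57e-07). Tkt means were 10.12, 9.06, 8.41 and 8.17 in that order of species. In liver 1 of 5 was higher, beside 15.1% of all genes: Me1, the cytosolic malic enzyme, by 2.33 (standard error 0.19, limma adjusted p = 7.06e-09), a contrast set by the guinea pig with a mean of 7.12 scaled reads against 772 to 5091 in the other species. Of 8 heme, iron and quinone genes, 2 were higher and 1 lower in heart, and 2 higher and 0 lower in liver. Blvrb, the biliverdin reductase B gene, was higher in liver of both mole-rats, at 12.64 ± 0.14 (SD, n = 4) in the naked and 11.86 ± 0.47 (SD, n = 5) in the Damaraland species. Guinea pig livers were at 10.70 ± 0.52 (SD, n = 3) and mouse livers at 10.74 ± 0.23 (SD, n = 2) (average contrast 1.53, limma adjusted p = 2.17e-06). Hmox2, the constitutive heme oxygenase gene, was 1.41 higher in liver (limma adjusted p = 4.1e-09) and lowest in guinea pig. In heart Blvra, another biliverdin reductase gene, averaged 1.85, Slc40a1, the iron exporter ferroportin, 1.32 and Fth1, ferritin heavy chain, -1.62 (limma adjusted p = 1.9e-08, 1.19e-06 and 5.02e-07). The first 2 had their highest means in Damaraland mole-rat, and Fth1 was lowest in naked mole-rat.

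Of 9 detoxification and export genes, 4 were higher and 0 lower in heart and 3 higher and 1 lower in liver, beside 10.8% of all genes higher in heart and 15.1% in liver. Abcc4, an efflux pump of the liver cell's blood side, was higher in both mole-rats in liver, at 11.85 ± 0.48 (SD, n = 4) in the naked and 9.34 ± 0.60 (SD, n = 5) in the Damaraland species, whereas guinea pig livers were at 6.92 ± 0.08 (SD, n = 3) and both mouse livers at 6.73. Mean scaled reads were 3799 and 658 against 85.1 and 70.5, every mole-rat liver was above every outgroup liver, and the average contrast was 3.77 (standard error 0.22, limma adjusted p = 1.58e-10). The share of all genes separated in that direction is not given here. Abcc3, a related pump, averaged 1.57 in heart and 1.78 in liver (limma adjusted p = 1.38e-07 and 0.000664), but in liver mouse, at 12.99, lay between naked mole-rat at 13.87 and Damaraland mole-rat at 10.77. Ephx1, an epoxide hydrolase gene, averaged 1.40 in heart and 1.30 in liver and was lowest in mouse in both (limma adjusted p = 2.41e-08 and 4.7e-06). Osgin1 averaged 1.33 in heart and Cbr3, a carbonyl reductase gene highest in guinea pig, -1.34 in liver (limma adjusted p = 1.63e-06 and 6.47e-08).

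**Figure D4:**
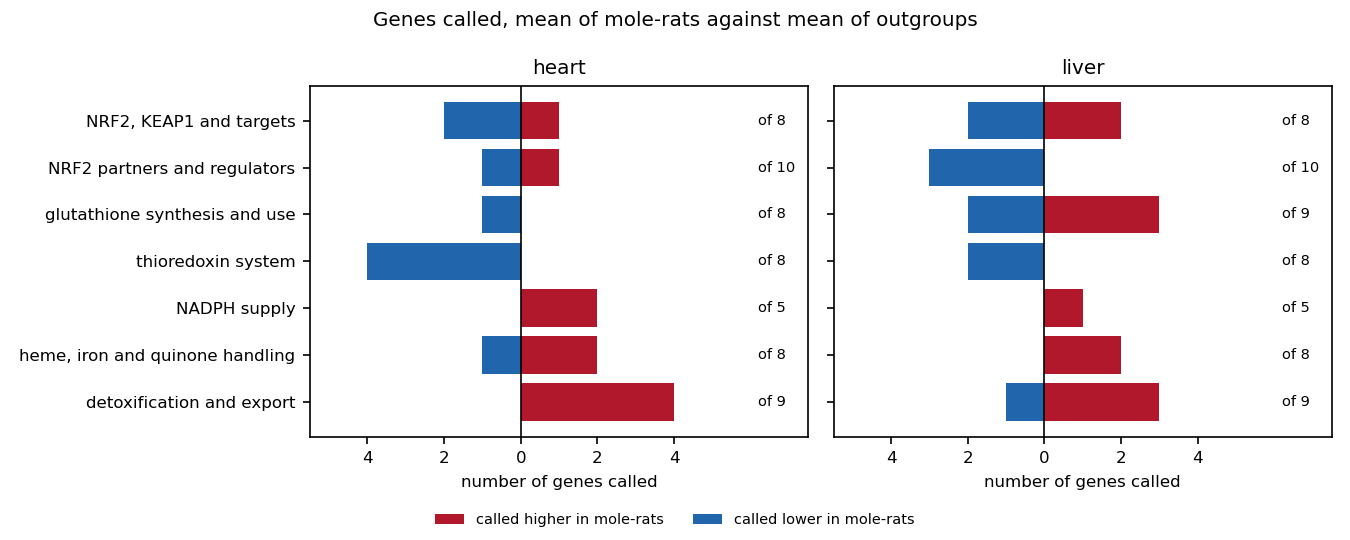
Number of genes called higher (right) or lower (left) in the mean of the mole-rats than in the mean of the outgroups, by list and tissue, with the number tested at the right edge. The thioredoxin list has 4 genes lower of 8 in heart and 2 of 8 in liver and 0 higher in either, and the members are split in both tissues.

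The genes whose values followed Nfe2l2 and Keap1 most closely across the 14 libraries of a tissue are given as a description, since libraries of a species are not independent and all share 1 normalisation. By Pearson's r, Nfe2l2 was followed by Zbtb2 (0.80), Arid1a (0.76) and Thap7 (0.75) in heart and by Cep57l1 (0.92), Kcnj3 (0.90) and Spry1 (0.90) in liver. Keap1 was followed by Rras (0.95), Csgalnact2 (0.93) and Wrnip1 (0.92) in heart and by Prpf31 (0.93) and Pdlim3 (0.92) in liver.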

How the data were processed

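Total RNA depleted of ribosomal RNA was sequenced from 28 heart and liver libraries of 18 animals. The deposited values are on a log2-like, variance-stabilised scale, 1 table per tissue with 13928 mouse gene identifiers, 13921 of them matched to a symbol. The submitters' processing notes name cutadapt, Salmon 013.1, DESeq2 and GRCm38, and how genes were matched between species is not given in the sources used here. Of the columns, 26 belong to no sample of the study and were not used. Whole reads were recovered by inverting the transform (100% of values whole within 0.0001).

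Species were compared within each tissue with limma 3.58.1 in R 4.3.3, with a coefficient per species, a mean-variance trend, 7 contrasts and Benjamini-Hochberg adjustment over 10667 genes in heart and 10887 in liver whose mean was at least 1 above the value of 0 reads. Genes with an adjusted p under 0.05 and a difference of at least 1 were called. The script was tested on simulated data. The members and lists were chosen with earlier results of these data known. All members are named, with listed pathway genes called the same way in each mole-rat against each outgroup and up to 3 more per list by size of the average contrast. Alternatives were no filter, a stricter filter, no size threshold, median centring, quantile normalisation, voom on recovered reads, a replicate block, and dropping each library in turn. The genes most like Nfe2l2 and Keap1 were the 3 with the highest Pearson correlation over the libraries of a tissue, and 1 of them is not reported here.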

Additional observations from a re-analysis of the deposited data

Results flagged for a closer look

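Among 72 groups of at least 4 libraries checked, 5 held a value far from the rest of its group, where chance gives about 1 in 20. Gclm in Damaraland heart replicate 5 was 7.80 against 8.37 to 8.56 in the other Damaraland hearts. Txnrd3 in Damaraland heart replicate 4 was 7.16 against 5.62 to 5.99. Slc7a11 in naked mole-rat liver replicate 2 was 5.13 against 4.59 to 4.68, which is 5 reads. In Damaraland liver replicate 5, Abcc1 was 11.21 against 9.28 to 9.83, and Txn1 was 9.63 against 10.24 to 10.42.

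For some members, a pair of species lay in opposite order in heart and liver. In each tissue, every library of the first species was on 1 side of every library of the second. The share of all genes separated in this way is not given here. The difference between the tissues was not tested, because the tables were normalised separately. Nqo1 in naked mole-rat minus mouse was -1.71 in heart and 3.09 in liver, and in Damaraland mole-rat minus mouse -1.34 in heart and 3.27 in liver. Gclc in Damaraland mole-rat minus mouse was 0.82 in heart, where it was not called, and -2.14 in liver. Gsr in Damaraland mole-rat minus guinea pig was 0.67 in heart and -0.68 in liver, called in neither. Txnrd1 in Damaraland mole-rat minus mouse was 0.23 in heart (limma adjusted p = 0.234) and -0.95 in liver, called in neither.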

How the results depend on the processing

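With no size threshold, the members called numbered 5 instead of 3 in the average contrast in heart, 6 instead of 3 between the mole-rats in liver, 2 instead of 1 in both mole-rats in liver, and 29 instead of 17 in heart and 38 instead of 23 in liver over all pairs of species. Leaving out each library in turn gave 2 to 4 members in the average contrast and 2 to 4 between the mole-rats in heart, 1 in both mole-rats and 15 to 18 comparisons over the pairs. In liver it gave 4, 3 and 1 members and 21 to 25 comparisons. Replicate numbers did not pair the libraries (r of -0.26 to 0.30 over 18 heart pairs and -0.23 to 0.15 over 16 liver pairs). With the replicate block, 3, 3 and 1 members and 16 comparisons over the pairs were called in heart, and 4, 3 and 1 members and 23 comparisons in liver. Gclc between the mole-rats in heart, at -0.98, was no longer called with that block. Of 112 differences of a single member, 14 changed sign under some setting. None of these was called in the fit of all libraries, and the largest was 0.31 in size. The causes were not tested. Median centring gave 0.000157 for Keap1 and 0.00936 for Nfe2l2 in Damaraland mole-rat minus guinea pig in heart, and the replicate block gave 0.0291 and 0.099. Voom gave -0.00985 for Nfe2l2 in the average contrast and -0.00717 in naked mole-rat minus mouse in heart. The replicate block gave 0.0045 for Nfe2l2 in Damaraland mole-rat minus mouse in heart and 0.0335 for Nqo1 in Damaraland mole-rat minus guinea pig in liver. Quantile normalisation gave -0.00721 for Nfe2l2 in naked mole-rat minus guinea pig in liver. Without 1 library, Nfe2l2 in heart ran from -0.32 to 0.17 in Damaraland mole-rat minus guinea pig, -0.14 to 0.11 in the average contrast, -0.12 to 0.14 in naked mole-rat minus mouse, -0.20 to 0.0514 in Damaraland mole-rat minus mouse, -0.16 to 0.34 in naked mole-rat minus guinea pig, -0.29 to 0.20 in guinea pig minus mouse and -0.00900 to 0.26 between the mole-rats. Keap1 in Damaraland mole-rat minus guinea pig in heart ran from -0.13 to 0.0333, Gclc in the average contrast in heart from -0.0172 to 0.13 and Hmox1 between the mole-rats in heart from -0.51 to 0.0781. In liver Nfe2l2 in naked mole-rat minus guinea pig ran from -0.047 to 0.19, Nqo1 in Damaraland mole-rat minus guinea pig from -0.23 to 0.0227, and Gsr from -0.21 to 0.35 in guinea pig minus mouse and from -0.0706 to 0.21 in the average contrast. The median difference over all genes was at most 0.11 in size under any setting and contrast. Depth limits Slc7a11 and the naked mole-rat heart values, and 2 mouse livers limit every contrast with mouse liver.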
